A study of Mus musculus with 6 samples.

Results

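The genes described here move calcium into, out of and around the endoplasmic reticulum of a beta cell. They are the calcium pumps Atp2a2, Atp2a3 and Atp2b1, the calcium release channels Itpr1, Itpr2, Itpr3 and Ryr2, and the store-operated entry genes Stim1, Stim2 and Orai1. Members were all probe sets (groups of short probes that together give 1 signal) annotated to only 1 of these 10 symbols. That gave 26 probe sets for 9 genes, out of 45101 probe sets on the array and 18193 genes named by a single-gene probe set. Itpr1 had no such probe set in the annotation used and has no value here.

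Transcripts were measured in MIN6, a mouse insulinoma line that secretes insulin, on 6 arrays. Cells of 3 arrays had been electroporated with 100 pmol of a control siRNA and cells of the other 3 with 100 pmol of a TDP-43 siRNA. TDP-43 is an RNA-binding protein and Tardbp is its gene. Both groups thus share the line, the electroporation and the presence of an siRNA. The siRNA sequences and the time from electroporation to RNA extraction are not given in the sources used here. The labels do not say that the replicates were grown or treated separately, so p-values measure the spread between these arrays, which may be technical.

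In a beta cell, SERCA pumps fill the endoplasmic reticulum with calcium from the cytosol. IP3 receptors, opened by the second messenger IP3, and ryanodine receptors, opened by calcium itself, let it out again. When the store empties, STIM proteins in the reticulum membrane sense the loss and open ORAI channels in the plasma membrane, while plasma membrane calcium ATPases push calcium out of the cell. These stores shape the calcium signals that follow glucose and drive insulin release.

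The arrays were alike and the knockdown was partial. Array pairs correlated between 0.982 and 0.988 over the log2 values of the 27022 probe sets tested, and median signals lay between 72.3 and 79.97. Tardbp fell on all 5 of its probe sets, and on the brightest, 1423723_s_at, the mean signal after TDP-43 siRNA was 0.557 of the control (log2 difference -0.85, SE 0.09, limma adjusted p = 0.00216). The ratio was 0.547 on 1455655_a_at and 0.370, 0.406 and 0.415 on 1434419_s_at, 1428467_at and 1436318_at. Of 10 beta cell markers, 7 had a single-gene probe set, among them Ins2, Iapp, Pdx1 and Slc2a2, and all 7 were above the filter on low signals. Their log2 differences ran from -0.03 to 0.25 with a median of -0.01, 3 above 0 and 4 below, and none passed. Slc30a8 was the highest (0.25, SE 0.06, limma adjusted p = 0.149), and its groups did not overlap. The summed signal of the 7 ran from 73214 to 76598 in control arrays and from 72820 to 79394 after TDP-43 siRNA. None of the markers of other islet cells, of acinar and duct cells or of fibroblasts, endothelium and immune cells that were measured (5 in each of the 3 lists) passed the test. Sums took in every marker with a single-gene probe set (8, 8 and 9 in that order), also those below the filter. The summed signal ran from 32066 to 34350 in control arrays and from 29509 to 32338 after TDP-43 siRNA for other islet cells. It ran from 5974 to 6647 against 5446 to 6541 for acinar and duct cells, and from 326 to 482 against 320.3 to 406 for the third list. Hhex, Ppy, Ghrl, Cpa1, Krt19, Sox9, Col1a1, Pecam1, Cdh5 and Ptprc were below the filter. Gcg (9264 in control arrays), Ttr (22767) and the duct marker Krt7 (5648) were above it, and Krt7 made up most of the acinar and duct sum. Irx1, Irx2, Sst, Cela1, Cela3b, Prss2, Car2, Col1a2, Fn1, Thy1, Lyz2 and Cd68 were also above the filter, at lower signals. In each of these 3 lists 2 measured genes were above 0 and 3 below. The groups did not overlap for Sst (1.03, SE 0.39), Car2 (-0.76, SE 0.33) and Col1a2 (-0.63, SE 0.24), with limma adjusted p = 0.353, 0.424 and 0.346. Sst, at 25.1 in control arrays and 62.4 after TDP-43 siRNA, passed the filter only through the latter. The part of other cell types in the results was not tested. In such bulk RNA, fewer cells of a type and less RNA per cell cannot be told apart.

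No member passed the test for a change after TDP-43 siRNA. Of the 26 probe sets, 22, from all 9 genes, were above the filter (a mean signal over 41.5), and 0 of the 22 passed at a limma adjusted p of 0.05, where 0.585% of all probe sets did (0.130% higher and 0.455% lower). At an unadjusted p below 0.05 there were 3 of 22, or 13.6%, against 11.3% of all probe sets. The control and TDP-43 siRNA arrays did not overlap on 4 of 22, or 18.2%, against 17.2% of all. All 4 were lower after TDP-43 siRNA, while over all probe sets 8.45% were lower in this way and 8.74% higher. Without regard to direction, the 2 shares of 13.6% and 18.2% lay near those of the array as a whole. The share that was lower without overlap, 18.2%, was above the 8.45% of all, but rests on 4 probe sets. The median log2 difference was -0.02 over the members and 0.01 over all probe sets tested. Differences are given as log2 of the TDP-43 siRNA level less log2 of the control level, with 12 added to each signal, so changes of dim probe sets are understated. The smallest difference that passed anywhere on the array was 0.33 in size.

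**Figure D1:**
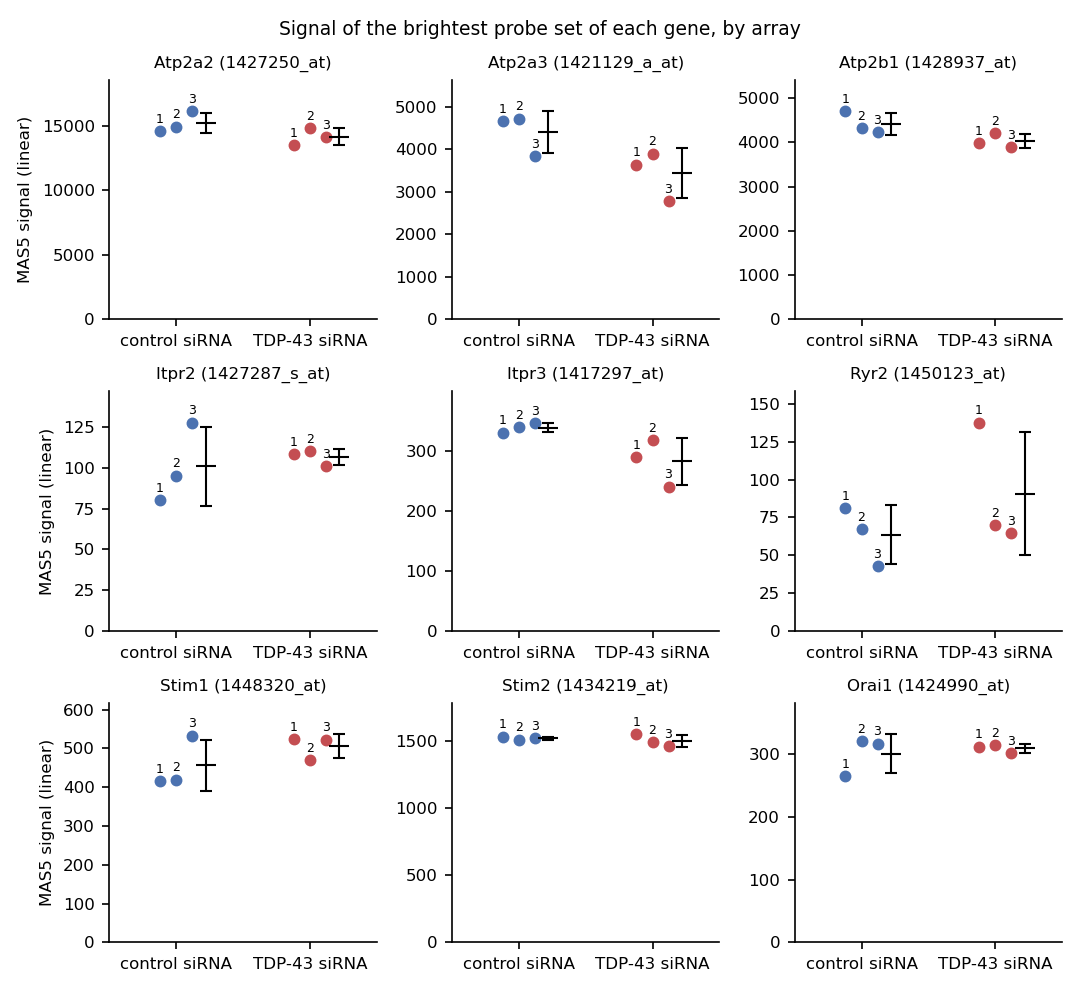
Signal (linear scale, from 0) of the brightest probe set of each of the 9 genes, in the control siRNA arrays (blue) and the TDP-43 siRNA arrays (red). Points are single arrays with their replicate number, and the bar beside them is the mean with 1 SD. Itpr3 and Atp2b1 have all red points below all blue ones, and the other 7 genes overlap.

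The 3 pump genes described here lay on the lower side, without passing. Of their 11 probe sets, 10 were below 0, where 48.3% of all probe sets were, with a median of -0.15. These 11 probe sets come from 3 genes (6 from Atp2a2) and 6 arrays and are not independent of one another. Counting the pump probe sets below 0 was not planned. The count was 8 without both arrays numbered 3, and between 9 and 10 when any 1 array was left out. Of the other pumps measured, Atp2b2 was at 0.02 (SE 0.09), Atp2b3 at 0.23 (SE 0.25) and Atp2c1 at -0.15 (SE 0.06).

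Atp2a2 encodes SERCA2, the pump that fills the reticulum in most tissues, and it had 6 probe sets. The probe set with the smallest p of any member, 1427251_at, read 1279, 1309 and 1337 in control arrays and 1050.2, 1119 and 1020.5 after TDP-43 siRNA. All 3 TDP-43 siRNA arrays lay below all 3 control arrays. This is a log2 difference of -0.30 (SE 0.07, with 3 arrays per group), a signal 0.813 of the control, with a 95% confidence interval from -0.46 to -0.13 and a limma adjusted p = 0.140. A second one, 1416551_at, read 11565, 11561 and 13215 against 9980, 11155 and 9606. Its groups did not overlap either, and control replicate 3 was the highest array (-0.24, SE 0.07, interval from -0.40 to -0.08, limma adjusted p = 0.226).

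The brightest Atp2a2 probe set, 1427250_at, gave a difference closer to 0. It read 14574, 14902 and 16105 in control arrays and 13462, 14794 and 14123 after TDP-43 siRNA. The groups overlapped, since TDP-43 siRNA replicate 2 lay above control replicate 1, and the difference was -0.10 (SE 0.06, interval from -0.23 to 0.02, limma adjusted p = 0.517). Without control replicate 3 it was -0.06. On 1452363_a_at the signals were 7669, 5909 and 8786 against 6642, 7067 and 6162, a difference of -0.15 within a wide spread (SE 0.12).

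The other 2 Atp2a2 probe sets did not share that order. The signals of 1437797_at were 689, 661 and 640.01 in control arrays and 459, 728 and 775 after TDP-43 siRNA. TDP-43 siRNA replicate 1 was the lowest array and replicate 3 the highest, with a difference of -0.06 (SE 0.17). On 1443551_at the signals were 137, 101 and 146 against 105, 152 and 181, and TDP-43 siRNA replicate 3 was again the highest (0.15, SE 0.21, interval from -0.32 to 0.63). When each further probe set was set against 1427250_at, its change differed by -0.19 (SE 0.12) for 1427251_at, by -0.14 (SE 0.08) for 1416551_at and by 0.26 (SE 0.23) for 1443551_at. None of these differences passed (limma adjusted p = 0.901, 0.880 and 0.970 in that order).

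Atp2a3 encodes SERCA3, another SERCA pump found in beta cells. It had the lowest log2 difference among the members. The probe set 1421129_a_at read 4655, 4720.1 and 3845 in control arrays and 3641, 3893 and 2782 after TDP-43 siRNA. Control replicates 1 and 2 were high, TDP-43 siRNA replicate 3 was low, and the groups overlapped only through control replicate 3, which lay just under TDP-43 siRNA replicate 2. The means were 4407 ± 487 in control arrays and 3439 ± 582 after TDP-43 siRNA (SD, n = 3 each), a signal ratio of 0.780, and the log2 difference of -0.37 (SE 0.12, interval from -0.64 to -0.09) did not pass (limma adjusted p = 0.290). Without TDP-43 siRNA replicate 3 it was -0.22, and without control replicate 3 it was -0.46, neither of which passed (limma adjusted p = 0.508 and 0.137).

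The second Atp2a3 probe set lay in the same range. On 1450124_a_at the signals were 1039, 1176 and 923 in control arrays and 1083, 846 and 624 after TDP-43 siRNA. TDP-43 siRNA replicate 1 stood among the control arrays and replicate 3 was the lowest (-0.32, SE 0.17, limma adjusted p = 0.525). The changes of the 2 probe sets differed by 0.04 (SE 0.15, interval from -0.30 to 0.39).

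Atp2b1 encodes PMCA1, a pump that carries calcium out across the plasma membrane. Its brightest probe set, 1428937_at, read 4705, 4326 and 4229.7 in control arrays and 3983, 4211 and 3891 after TDP-43 siRNA. The groups did not overlap, though TDP-43 siRNA replicate 2 came close to control replicate 3, and the difference was -0.13 (SE 0.06, interval from -0.27 to 0.01, limma adjusted p = 0.469). Without control replicate 1 it was -0.09. The signals of 1428936_at were 2480, 2811 and 2346 against 2273, 2638 and 1847 (-0.19, SE 0.12). The third, 1452969_at, gave 1423, 1232 and 1160.1 against 1221, 1463 and 1084 and was at -0.02 (SE 0.12). On this last one the highest array was TDP-43 siRNA replicate 2. Neither of the 2 further changes differed from that of 1428937_at past the threshold (limma adjusted p = 0.9997 for 1428936_at and 0.990 for 1452969_at).

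**Figure D2:**
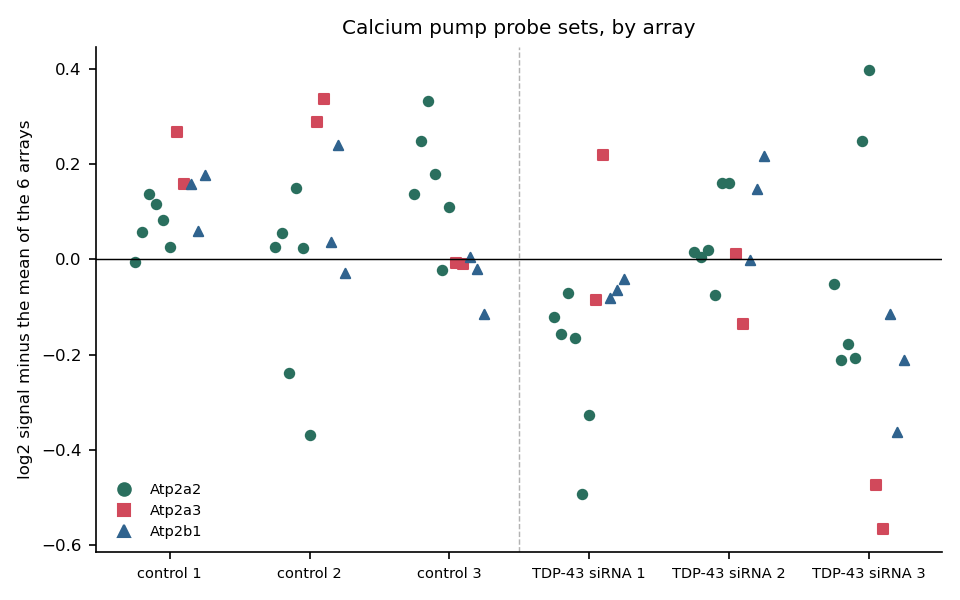
Log2 signal of the 11 pump probe sets on each array, less that probe set's mean over the 6 arrays. Circles are Atp2a2, squares Atp2a3 and triangles Atp2b1, and each point is 1 probe set on 1 array. In TDP-43 siRNA replicate 3 the points for Atp2a3 lie lowest, at -0.47 and -0.57, and 2 Atp2a2 points lie above 0.

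Among the pump values 1 array stood out. TDP-43 siRNA replicate 3 was the lowest of the 6 arrays on 7 of 11 pump probe sets, or 63.6%, against 19.0% of all probe sets tested. Without it, 10 of 11 pump probe sets were still below 0. The same array had the lowest 3' minus 5' log2 signal of the Gapdh control probes, at -0.40 where the highest array was at -0.36, and of the b-actin control probes, at 0.33 where the highest was at 0.41. The part of these small differences in the pump values was not tested.

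Among the release channels, Itpr3 lay on the lower side. It encodes the type 3 IP3 receptor, and its single probe set, 1417297_at, read 331, 340.03 and 347 in control arrays and 290.2, 318 and 241 after TDP-43 siRNA. All 3 arrays of the knockdown were below those of the control, which were closely spaced (SD 8.11), whereas the TDP-43 siRNA arrays spread more widely (SD 39.1). The log2 difference was -0.26 (SE 0.12, interval from -0.53 to 0.01, limma adjusted p = 0.459). Without TDP-43 siRNA replicate 3 it was -0.15.

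Itpr2, the type 2 IP3 receptor, had 6 probe sets, of which 3 were above the filter. The brightest, 1427287_s_at, read 80.2, 95.2 and 128 in control arrays and 108, 110.3 and 101 after TDP-43 siRNA. The TDP-43 siRNA arrays lay inside the control range (0.09, SE 0.19, limma adjusted p = 0.908), and the difference ran from -0.05 without control replicate 1 to 0.25 without control replicate 3. On 1424834_s_at the signals were 65.9, 43.1 and 65.7 against 65.1, 63.1 and 52.1 (0.05, SE 0.22), and on 1427693_at they were 29.1, 64.2 and 34.95 against 48.1, 32.0 and 58.3 (0.11, SE 0.31). On neither did the groups separate. The 3 probe sets under the filter, 1424833_at, 1421678_at and 1444418_at, had control means of 37.2, 30.6 and 30.8. Their TDP-43 siRNA means were 40.2, 31.5 and 28.4, with no call made.

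Ryr2, the ryanodine receptor also known from heart muscle, gave the highest log2 difference among the members, with the widest interval. The probe set 1450123_at read 80.9, 67.1 and 42.9 in control arrays and 137, 70.04 and 64.6 after TDP-43 siRNA. Only TDP-43 siRNA replicate 1 stood above the control arrays, and the other two lay among them. The difference of 0.41 (SE 0.30) had an interval from -0.26 to 1.07 (limma adjusted p = 0.661). It was 0.10 without TDP-43 siRNA replicate 1 and 0.19 without control replicate 3. The second probe set, 1421126_at, was under the filter, with signals of 6.645, 42.2 and 13.2 against 32.4, 28.5 and 12.7.

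The store-operated entry genes gave small differences, none past the threshold. Their 6 probe sets lay between -0.02 and 0.20 with a median of 0.09, 5 of them above 0, and on all 6 the groups overlapped. Stim2, the sensor that responds to small losses from the store, was the most tightly measured member outside the pumps. Its probe set 1434219_at read 1535, 1512 and 1521 in control arrays and 1553, 1496 and 1462 after TDP-43 siRNA. The TDP-43 siRNA arrays spread around the control arrays on both sides, and the difference of -0.02 (SE 0.07, limma adjusted p = 0.947) had an interval from -0.17 to 0.13. It was -0.04 without TDP-43 siRNA replicate 1 and 0.00149 without TDP-43 siRNA replicate 3. The interval of the full fit leaves out log2 changes as large as the fall of Tardbp. The second probe set, 1441024_at, read 64.2, 73.5 and 91.1 against 99.3, 85.5 and 61.9 (0.09, SE 0.22), with both the highest and the lowest array in the TDP-43 siRNA group.

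Stim1, the main sensor of store depletion, had values above 0 on both of its probe sets, and neither passed. On 1448320_at the control arrays read 416, 419 and 533 and the TDP-43 siRNA arrays 525, 470.3 and 522. Control replicate 3 was the highest array of all, and the other 2 control arrays were the lowest (0.15, SE 0.12, interval from -0.11 to 0.41, limma adjusted p = 0.677). The difference was 0.09 without control replicate 1, 0.10 without control replicate 2 and 0.27 without control replicate 3, and none of these passed. On 1436945_x_at, whose suffix marks probes that may read other transcripts, the signals were 356, 406 and 367 against 438, 359 and 408 (0.09, SE 0.11).

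Orai1, the pore of the store-operated channel, did not separate the groups. The probe set 1424990_at read 264, 319.5 and 316 in control arrays and 311, 313 and 301 after TDP-43 siRNA. All 3 TDP-43 siRNA arrays lay inside the control range (0.04, SE 0.11, interval from -0.21 to 0.29, limma adjusted p = 0.927). The difference ran from -0.04 without control replicate 1 to 0.09 without control replicate 2. On 1424989_at the signals were 62.6, 69.2 and 54.8 against 102, 63.4 and 59.5, where TDP-43 siRNA replicate 1 alone was high (0.20, SE 0.23). That array was also the highest for Ryr2.

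Whether the probe sets of one gene changed differently was tested over 10814 pairs. None of the 13 pairs of members passed, nor did any pair on the array (0.00% at a limma adjusted p of 0.05, and 6.99% at an unadjusted p below 0.05). The lowest unadjusted p among the member pairs was 0.134. The member whose 6-array pattern was compared with all others was Atp2a2 on 1427251_at, as the probe set with the smallest p. The nearest probe sets of other genes, by the root mean square difference of mean-centred log2 values over the 6 arrays, were those of Tc2n (0.0291), Yme1l1 (0.0348) and Sub1 (0.0372).

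The wider calcium-handling machinery gave no call either. A list of 110 further genes in 8 roles had 99 with a single-gene probe set, of which 81 had one above the filter. On the brightest probe set of each, 0 rose and 0 fell at a limma adjusted p of 0.05, where 0.626% of all genes passed (0.127% higher and 0.499% lower), and 6 were below an unadjusted p of 0.05, where 12.2% of all genes were. The groups did not overlap for 12 of the 81, against 18.3% of all genes. The median was 0.05 against 0.02 over all genes. Of the list genes 54 were above 0 (66.7%) and 27 below, where 55.0% of all genes were above 0. Pln, Casq1, Homer2 and Slc8a2, all above 0, had control means under the filter of 41.5 and passed it only through their TDP-43 siRNA arrays. Trpc5, below 0, passed it only through its control arrays. The signs of these genes are thus not independent of the filter.

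Slc24a2, a potassium-dependent sodium-calcium exchanger, came nearest to passing. It read 996, 1046 and 1091 in control arrays and 1330.1, 1397 and 1230.4 after TDP-43 siRNA. All 3 TDP-43 siRNA arrays were above the control arrays (0.33, SE 0.08, interval from 0.16 to 0.51, limma adjusted p = 0.126). In the same role, Atp2c1, the calcium and manganese pump of the Golgi, was at -0.15 (SE 0.06). The 10 genes measured, which include the pump partners Bsg and Nptn, had 9 values above 0 and a median of 0.11. Slc8a2, one of the 9, passed the filter only through its TDP-43 siRNA arrays.

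The proteins that hold calcium inside the store gave values on both sides of 0. Of 14 measured, 8 were above 0, with a median of 0.01. Casq1, one of the 8, passed the filter only through its TDP-43 siRNA arrays. Rcn2, a calcium-binding protein of the reticulum, was the nearest to passing at 0.15 (SE 0.05, limma adjusted p = 0.280), and its groups did not overlap. Hsp90b1, the reticulum chaperone GRP94, was at -0.08 (SE 0.06). Among 5 SERCA regulators and related genes, Sri, the calcium-binding sorcin, was at -0.16 (SE 0.07) and Tmbim6, a membrane protein of the reticulum, at -0.08 (SE 0.06). Both of these had groups that did not overlap.

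In the remaining roles no gene passed either. Neither Ryr1 nor Ryr3 was above the filter. Among 13 regulators and scaffolds of release channels, Jph4 and Jph3, junctophilins that hold the reticulum close to the plasma membrane, were at 0.27 (SE 0.14) and 0.23 (SE 0.14). Among 11 store-operated entry genes, Trpc1, a cation channel, was at 0.25 (SE 0.09) and Orai3, a relative of Orai1, at 0.16 (SE 0.12). In mitochondria, with 11 genes measured, Vdac1, the outer membrane channel, was at 0.24 (SE 0.08) and Hspa9, the matrix chaperone mortalin, at 0.18 (SE 0.08). Of 3 lysosomal channels, Tpcn1 was at -0.18 (SE 0.11) and Tpcn2 at 0.13 (SE 0.16). Of 14 genes of IP3 signalling (enzymes that make or break down IP3, receptors and G protein subunits upstream of them), 11 were above 0, with Inpp5a, a phosphatase that removes IP3, at 0.18 (SE 0.07) and Gna11, a G protein subunit upstream of phospholipase C, at 0.12 (SE 0.06). The limma adjusted p of these 10 genes ranged from 0.273 to 0.818.

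**Figure D3:**
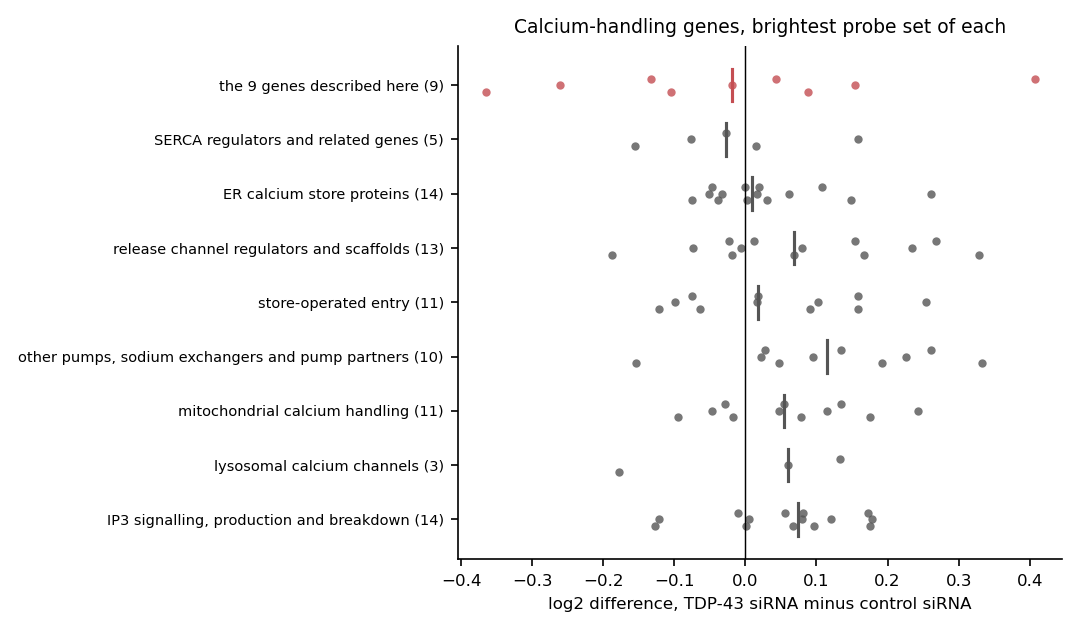
Log2 difference, TDP-43 siRNA minus control siRNA, of the brightest probe set of the 9 genes described here (red) and of 81 further calcium-handling genes by role (grey). The number of genes is in brackets and the upright bar is the median. All 90 points lie between -0.37 and 0.41, and Ryr2 is the rightmost.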

How the data were processed

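Biotin-labelled RNA of 6 samples, made from 100 ng of total RNA each per the labels' protocols, was hybridised to Affymetrix mouse arrays. Per the submitters' processing notes, MAS5 was used, with no version given in the sources here, and the authors deposited linear signal intensity values for 45101 probe sets. The 2% trimmed mean was 500.003 on every array. Detection calls stayed unused. The platform annotation named the probe sets (34945 with 1 gene, 932 with several, 9160 with none, 64 controls). Of the single-gene ones, 34741 were matched by Entrez number to RefSeq's GRCm38.p6 table and took its symbol. Levels of different probe sets served only for the filter, to pick the brightest of a gene and, added up, for the sums of the marker lists. The number of arrays limits the precision.

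The value 12 (the rounded 20th percentile) was added before log2. Control probe sets and the 40% of the others with the lowest mean were left out, which kept 27022. The fit was made in R 4.3.3 by limma 3.58.1, using lmFit and trended eBayes; tests were two-sided and p-values were adjusted over all probe sets by the Benjamini-Hochberg method, at a threshold of 0.05. Genes of the wider list were read from their brightest probe set in the same fit. Pairs of probe sets were fitted as per-array differences. Text names all members, Tardbp, the 2 list genes per role with the smallest p, the other measured pumps of the list, and the 3 nearest patterns. Members and lists were chosen with earlier results of these data known.

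Tested on simulated data over 27022 probe sets, the test of TDP-43 siRNA against control recovered 20% of 100 changes of 0.5 and 60% of 100 changes of 1, and called 9 unchanged ones. Alternatives were other pseudocounts, filters, normalizations, variance models, thresholds and gene summaries, a plain two-sample test, a replicate block and arrays left out.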

Additional observations from a re-analysis of the deposited data

How the results depend on the processing

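Under all 21 alternatives, 0 member probe sets and 0 genes of the calcium-handling list passed. Under all alternatives where pairs were fitted, 0 member pairs passed. In the fits of probe sets, 1 to 5 members, of 15 to 26 tested, were below an unadjusted p of 0.05. Over all probe sets, 2075 to 3992 were. In the settings where 5 of 22 members were, 2788 to 3842 of all 27022 probe sets were. The 11 member values followed (the brightest probe set of each gene and 2 more of Atp2a2) were recomputed 225 times. None passed, 220 kept their sign, and 5 near 0 turned. Without control replicate 1, Itpr2 was at -0.0472 and Orai1 at -0.0420. Stim2 was at 0.0333 as the mean of its probe sets, at 0.000824 without both arrays numbered 3, and at 0.00149 when TDP-43 siRNA replicate 3 was left out. With 1 array left out, Stim2 ranged from -0.0417 to 0.00149, Orai1 from -0.0420 to 0.0905 and Itpr2 from -0.0472 to 0.252. The cause was not tested. Atp2a3 ranged from -0.46 to -0.22 (limma adjusted p from 0.0563 to 0.655).

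The count over all probe sets, 158, was less stable. It was 69 with no filter, 298 at a threshold of 0.1, 94 genes with the brightest probe set of each gene and 61 with the mean of probe sets, 0 without the intensity trend (limma, 2896 at an unadjusted p below 0.05) and 1 by plain two-sample tests. It lay between 56 and 325 with 1 array left out, the highest without control replicate 3, and was 241 without both arrays numbered 3. For pairs, 1 passed at a threshold of 0.1.

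The replicate numbers showed no clear pairing of the arrays. Same-numbered deviations from the group means correlated at -0.11, -0.13 and 0.25, and 2 of 6 arrays correlated best with their own number. Centring each group makes the covariances of an array with the other group sum to 0. These values therefore cannot show that the arrays were unpaired. With the replicate block 156 probe sets and 0 members passed, and Atp2a3 had its lowest adjusted p, 0.0563. Intervals ran from 0.247 wide in log2 for 1427250_at of Atp2a2 to 1.37 for Ryr2, which limits the size of change that could be detected.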
